A study of Mus musculus with 10 samples.

Results

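The BAF complex, the mammalian SWI/SNF chromatin remodeller, was followed through 10 of its subunit genes in mouse medulloblastoma and cerebellum: Smarca2, Smarca4, Smarcb1, Smarcc1, Smarcd1, Smarcd3, Actl6a, Actl6b, Dpf1 and Phf10. They are 10 of the 18193 genes that probe sets of single genes name. Every probe set annotated to 1 of these symbols alone was taken, which gave 22 of 45137 probe sets, 17 on the Affymetrix 430A chip and 5 on the 430B chip. Each chip held 3 medulloblastomas, which are malignant tumours of the cerebellum, and 2 samples of adjacent cerebellar tissue that the labels call wild type. All samples came from mice that carry CAGGS-CreER, a tamoxifen-activated recombinase under a broadly active promoter, and R26-SmoM2, an activated form of the Hedgehog pathway protein Smoothened. Tamoxifen was given at 1 mg per 40 g of body weight on postnatal day 10, so the adjacent cerebellum shares the alleles and the treatment of the tumours. The age at collection is not given in the sources used here, and the labels speak of biological replicates without saying that each came from its own mouse. The p-values therefore reflect the scatter among these arrays alone, some of it possibly technical.

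BAF complexes use the energy of ATP to move or evict nucleosomes, and they open promoters and enhancers for transcription factors. Each complex holds 1 ATPase, either SMARCA4 (BRG1) or SMARCA2 (BRM). The core can include SMARCB1, SMARCC1 and a SMARCD protein, and further subunits are exchangeable. In the mouse nervous system, dividing neural progenitors carry the actin-related subunit ACTL6A with PHF10 and SS18, and neurons that have left the cell cycle carry ACTL6B with DPF1, DPF3 and SS18L1 in the same places. Granule neuron precursors, from which Hedgehog-driven medulloblastoma arises, pass through that exchange as they mature.

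The tissues carried most of the markers that their labels call for. The intensity of Mki67, which marks dividing cells, was 627, 747 and 674 in the tumours against 53.8 and 11.2 in cerebellum, and that of Gabra6, a receptor subunit of mature granule neurons, was 52.2, 37.0 and 15.2 against 3020 and 3004. Atoh1, the transcription factor of granule neuron precursors, had a log2 fold change of 3.79 ± 0.21 (tumour over cerebellum ± SE), and Calb1, a calcium buffer of Purkinje cells, had -5.65 ± 0.34. Summed levels are over the genes of a list read on 430A. Over the 17 measured genes of dividing cells, all of which rose, the sum lay from 6498 to 7685 in tumours against 880 and 505 in cerebellum 1 and 2. Of 12 genes of granule neuron precursors 7 rose and 2 fell, Neurod1 (-1.60) and Zic1 (-1.19). The summed level of 11 of these genes lay from 3652 to 5768 in tumours against 4565 and 5081 in cerebellum, so that the sums overlapped. Neurod1, at 1914 and 2159, and Zic1, at 2149 and 2631, made up most of the cerebellum sums. All 11 mature granule neuron genes and all 10 Purkinje cell genes fell. Of the genes of other cells, 8 of 10 of astrocytes and Bergmann glia, 7 of 8 of oligodendrocytes, 5 of 7 of GABAergic interneurons and 2 of 7 of endothelial cells fell, and 6 of 9 of microglia and macrophages rose. The summed level of the 9 microglial genes lay from 1133 to 1463 in tumours against 467 and 384 in cerebellum, that of 7 oligodendrocyte genes from 194 to 363 against 4108 and 5030, and that of 9 astrocyte and Bergmann glia genes from 689 to 1199 against 6826 and 8372. Replicate numbers do not link tumours between the chips. Over the 100 probe sets that both chips hold, the deviations of 430A tumours 1, 2 and 3 from their mean correlated with those of the tumours of the same number on 430B at 0.215, -0.684 and -0.520, and best with those of 430B tumours 2, 3 and 1, at 0.830, 0.862 and 0.729. Apart from these 100, the chips hold different probe sets, and each chip was tested on its own.

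The actin-related subunits are the pair on which the exchange is best known. Their promoters are shown because the ratio between these paralogues changed most among 4 such pairs of 430A probe sets. That holds for the mean over the tumours, though not for tumour 2. The 430B probe set of Actl6a gave a smaller difference and was not called. The 250 bases before the RefSeq start of each gene (GRCm38.p6, plus strand) are chr3:32708296-32708545 for Actl6a and chr5:137553296-137553545 for Actl6b. The span of Actl6b in the RefSeq gene table begins inside that window. Capitals mark CCAAT boxes, as CCAAT or its complement.
Actl6a: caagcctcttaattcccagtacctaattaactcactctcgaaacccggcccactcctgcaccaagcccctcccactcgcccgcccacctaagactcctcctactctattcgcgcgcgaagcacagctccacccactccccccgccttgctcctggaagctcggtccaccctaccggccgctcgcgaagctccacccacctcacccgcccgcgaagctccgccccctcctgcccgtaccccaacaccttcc
Actl6b: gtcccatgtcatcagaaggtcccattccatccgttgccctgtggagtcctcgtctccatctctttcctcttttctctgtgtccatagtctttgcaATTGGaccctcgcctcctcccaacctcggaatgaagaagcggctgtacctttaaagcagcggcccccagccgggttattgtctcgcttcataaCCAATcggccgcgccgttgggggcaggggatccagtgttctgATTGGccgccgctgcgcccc
Actl6b held 3 CCAAT boxes and Actl6a none, and among the other 8 subunit genes Dpf1 alone held any, with 2. Of 32851 promoter windows of this length, 33.8% held the motif. The further motifs searched on both strands were the E2F sites TTTCCCGC and TTTGGCGC, the E-box CACGTG, the GLI site TGGGTGGTC, the RE1 half-site TTCAGCACC and the NRF1 core GCATGCGC. None of their matches overlapped another motif. Smarcd1 held TTTCCCGC, which 0.895% of all windows hold, and Smarca4 and Smarcc1 held GCATGCGC, which 2.26% hold. The other motifs, in 0.417% (TTTGGCGC), 6.02% (CACGTG), 0.225% (TGGGTGGTC) and 0.301% (TTCAGCACC) of all windows, had no match in these 10.

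Of the 22 probe sets, 18 passed the filter on low values, 15 on 430A and 3 on 430B. The 10 genes are each represented among them. In limma with Benjamini-Hochberg adjustment over all tested probe sets of a chip, a call needs an adjusted p below 0.05. On 430A, 5 of the 15 tested probe sets were called higher in medulloblastoma, or 33.3%, where 13.1% of all tested probe sets were, and 3 were called lower, or 20%, where 19% of all were. On 430B, 1 of 3 was called higher, where 7.85% of all were, and none lower, also at an unadjusted p below 0.05, where 9.77% of all were called lower. The groups did not overlap in 9 of 15 probe sets on 430A, against 55.6% of all, and in 2 of 3 on 430B, against 45.6% of all, both near the background. Probe sets of a gene share their transcript and are not independent. The higher calls were in Smarcc1, Actl6a and Phf10 and the lower calls in Smarca2 and Smarcd3. No probe set of Smarca4, Smarcb1, Smarcd1, Actl6b or Dpf1 was called by limma, and 0 of their tested probe sets had an unadjusted p below 0.05. The median log2 fold change of the tested probe sets was 0.36 on 430A, against -0.05 for all tested.

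**Figure D1:**
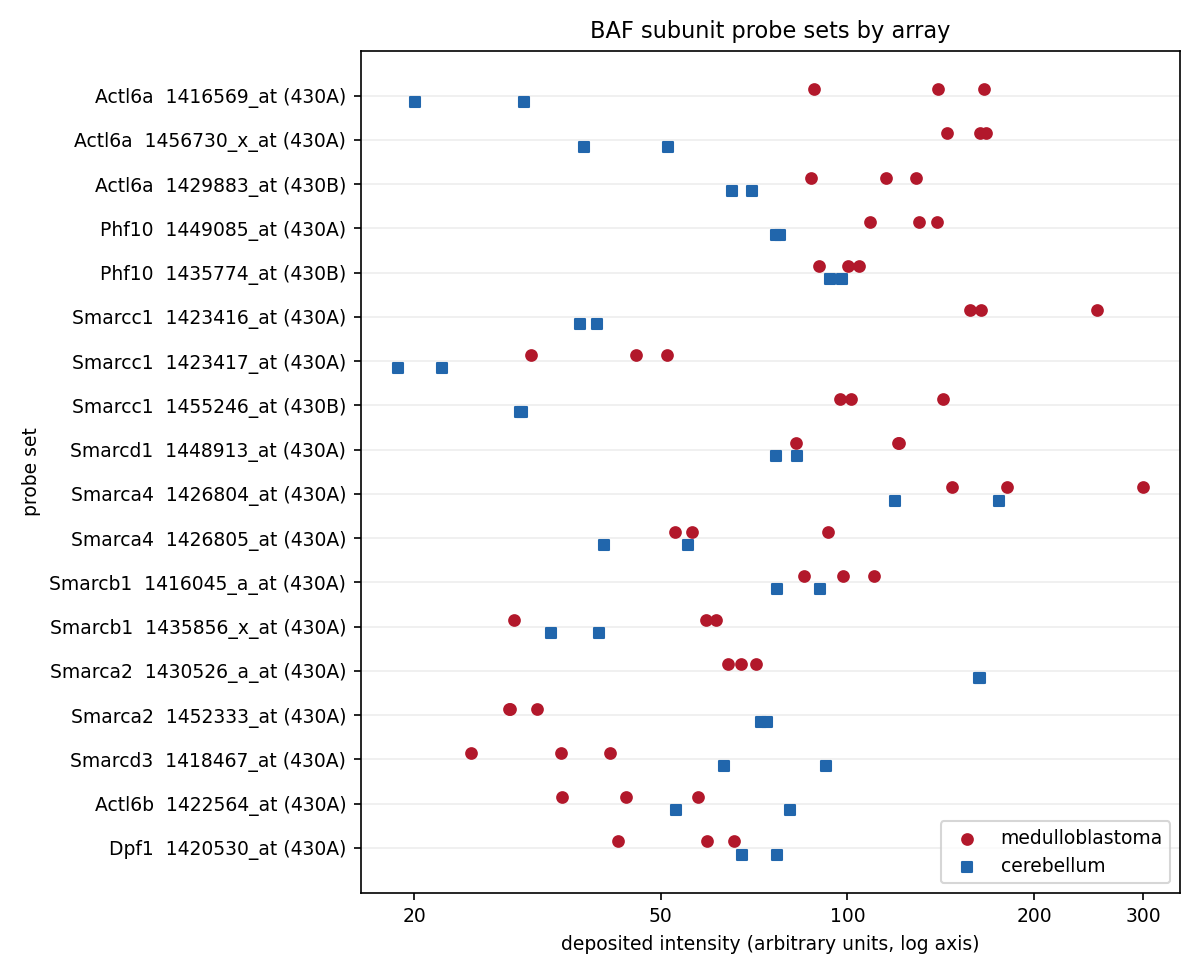
Deposited intensity (arbitrary units, log axis) of the 18 tested BAF subunit probe sets, with red points for the 3 medulloblastomas and blue squares for the 2 cerebellum samples of the chip named beside each probe set. The tumours lie right of the cerebellum samples for Actl6a and Smarcc1 and left for Smarca2 and Smarcd3, and the tissues overlap for Smarca4, Smarcb1 and Actl6b.

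Actl6a, the actin-related subunit of progenitor complexes, rose in the tumours. Its probe set 1416569_at read 166, 88.3 and 140 in tumours 1, 2 and 3, against 30.1 and 20.1 in cerebellum 1 and 2. The groups lay well apart, with tumour 2 the lowest tumour and cerebellum 1 the higher cerebellum sample. The log2 fold change was 1.82 ± 0.24 (SE; limma adjusted p = 0.000156). A second 430A probe set, 1456730_x_at, read 164, 145 and 167 in tumours against 51.3 and 37.6 in cerebellum, with the same lowest tumour and the same order in cerebellum. This gave a log2 fold change of 1.54 ± 0.19 (adjusted p = 9.67e-05). RNA came from pieces of tissue, so that more cells of a type and more RNA per cell cannot be told apart, here and for every subunit.

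The 430B probe set of Actl6a, 1429883_at, gave a smaller difference. It read 115, 129 and 87.4 in tumours against 70.1 and 65.1 in cerebellum, groups that did not overlap. The log2 fold change of 0.58 had a 95% interval of 0.14 to 1.03 and an adjusted p of 0.0756, which misses the threshold. Without tumour 3 of that chip it was 0.72 (adjusted p = 0.00216). Tumour 3, the lowest of that chip, is the array whose deviations matched those of 430A tumour 2, which was the lowest there. Such a match of order did not hold for Smarcc1. Its 430A probe set 1423416_at was highest in tumour 2, at 253, and its 430B probe set 1455246_at read 101.5 in tumour 3 against 143 in tumour 1. Among all tested probe sets of 430A, tumour 2 was the lowest tumour in 38.7% and the highest in 38.4%.

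Actl6b, the neuronal counterpart of Actl6a, was lower on average without reaching a call. Its only probe set, 1422564_at, read 34.7, 57.4 and 44.0 in tumours against 52.9 and 80.7 in cerebellum. Tumour 2 lay above cerebellum 1, so that the groups overlapped. The log2 fold change was -0.43, with a 95% interval of -0.89 to 0.03 (adjusted p = 0.149). It came to -0.57 and was called without tumour 2 (adjusted p = 0.0330), and it was -0.67 without cerebellum 1 and -0.18 without cerebellum 2, neither of them called. The cerebellum samples stood in opposite order for the paralogues, cerebellum 1 being higher for both 430A probe sets of Actl6a and lower for Actl6b. Cerebellum 1 also had the higher summed level of the dividing-cell genes. Its sum was lower for the Purkinje cell genes (15050 against 19472 in cerebellum 2). So was that of 9 of the 11 mature granule neuron genes (10306 against 11630). This order was not particular to neurons. Cerebellum 1 was also lower for astrocytes and Bergmann glia (6826 against 8372) and oligodendrocytes (4108 against 5030). The same held for GABAergic interneurons (1222 against 1678) and granule neuron precursors (4565 against 5081). It was higher for microglia (467 against 384) and endothelial cells (312 against 283). The 11 mature granule neuron genes had a median log2 fold change of -3.22 and the 10 Purkinje cell genes one of -4.74, beside the -0.43 of Actl6b. The part of these cells in the values of the subunits was not tested.

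Phf10, a PHD finger subunit of progenitor complexes that also serves the PBAF form, depended on the probe set. On 430A, 1449085_at read 109, 139 and 131 in tumours against 77.8 and 76.6 in cerebellum, with no overlap. The log2 fold change was 0.60 ± 0.19 (adjusted p = 0.0296). It kept its size when an array was left out, from 0.54 to 0.69, but was not called without tumour 3 or without either cerebellum sample. On 430B, 1435774_at read 104, 89.9 and 100.2 in tumours against 98.0 and 93.9 in cerebellum, values that overlapped fully. That log2 fold change was 0.03, with a 95% interval of -0.37 to 0.42 (adjusted p = 0.944). It overlaps the 95% interval of the 430A probe set, 0.19 to 1.02, and the difference between them was not tested.

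Dpf1, the neuronal PHD finger subunit, had 1 probe set at readable levels. Probe set 1420530_at read 59.4, 65.7 and 42.6 in tumours against 67.6 and 77.1 in cerebellum, so that all tumours lay below both cerebellum samples by a small margin. The log2 fold change was -0.31, with a 95% interval of -0.72 to 0.11 (adjusted p = 0.254). It ranged from -0.41 without tumour 2 to -0.17 without tumour 3, and was not called with any array left out. Its other probe set, 1420529_at, lay between 1 and 1.8 on every array and was left out by the filter.

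Of the ATPases, Smarca2 fell and Smarca4 was not called. The Smarca2 probe set 1430526_a_at read 64.1, 67.4 and 71.3 in tumours against 163.9 and 163.2 in cerebellum, a log2 fold change of -1.10 ± 0.18 (adjusted p = 0.000575). The other, 1452333_at, read 28.5, 31.5 and 28.4 in tumours against 72.6 and 74.3 in cerebellum, a log2 fold change of -0.98 ± 0.15 (adjusted p = 0.000403). The replicates of each tissue were closer together for Smarca2 than for Smarca4, and the log2 fold changes of both probe sets stayed between -1.13 and -0.96 whichever array was left out.

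Smarca4, the ATPase that dividing progenitors depend on and that is mutated in some human medulloblastomas, varied among the tumours. Probe set 1426804_at read 147, 299 and 181 in tumours against 119 and 176 in cerebellum, and 1426805_at read 52.8, 93.1 and 56.2 against 40.5 and 55.3. Tumour 2 was the highest array in both, and the lowest tumour lay below the higher cerebellum sample in both. The log2 fold changes were 0.43 with a 95% interval of -0.20 to 1.06 (adjusted p = 0.297) and 0.36 with an interval of -0.13 to 0.85 (adjusted p = 0.257). They were lower without tumour 2 (0.16 and 0.15) or cerebellum 1 (0.18 and 0.19), and higher without tumour 1 (0.63 and 0.48), tumour 3 (0.50 and 0.45) or cerebellum 2 (0.68 and 0.53).

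Smarcc1, a scaffold of the core that is abundant in progenitor complexes, rose in each of its 3 tested probe sets. On 430A, 1423416_at read 164, 253 and 157 in tumours against 37.0 and 39.4 in cerebellum, a log2 fold change of 1.91 ± 0.22 (adjusted p = 6.58e-05). Probe set 1423417_at read 30.8, 51.2 and 45.5 in tumours against 22.2 and 18.8 in cerebellum, with 0.67 ± 0.18 (adjusted p = 0.0138). On 430B, 1455246_at read 143, 97.4 and 101.5 in tumours against 29.6 and 29.8 in cerebellum, with 1.49 ± 0.19 (adjusted p = 0.000437). No tumour overlapped a cerebellum sample in any of the 3, and the cerebellum samples were close to each other. The call of 1423417_at ended without either cerebellum sample, at log2 fold changes of 0.73 without cerebellum 1 and 0.60 without cerebellum 2. A further probe set, 1459824_at, lay between 1 and 4.54 and was not tested.

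Smarcb1, the core subunit whose loss marks human rhabdoid tumours, was not called. Probe set 1416045_a_at read 85.1, 110.3 and 98.3 in tumours against 77.0 and 90.4 in cerebellum, a log2 fold change of 0.19 with a 95% interval of -0.22 to 0.60 (adjusted p = 0.501). Probe set 1435856_x_at read 29.0, 61.3 and 59.2 against 39.8 and 33.3, a log2 fold change of 0.29 with an interval of -0.22 to 0.79 (adjusted p = 0.394). That value ranged from 0.15 without tumour 2 to 0.54 without tumour 1 (adjusted p = 0.0537), and was not called with any array left out. Tumour 1 was the lowest tumour in both and lay within or below the cerebellum values. The 430B probe set, 1456938_at, lay between 1 and 3.1 and was not tested.

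The SMARCD subunits link the complex to transcription factors. Smarcd1 was not called: 1448913_at read 82.8, 121.1 and 120.5 in tumours against 76.7 and 83.0 in cerebellum. Tumour 1 lay between the cerebellum samples, and the log2 fold change was 0.36 with a 95% interval of -0.09 to 0.81 (adjusted p = 0.221). A second probe set, 1420240_at, lay between 12.2 and 21.1, just under the filter, and was not tested. Smarcd3, a member of the family known from heart muscle and neurons, fell. Its probe set 1418467_at read 34.6, 41.3 and 24.7 in tumours against 63.2 and 92.5 in cerebellum, with no overlap. The log2 fold change was -0.92 ± 0.20 (adjusted p = 0.00432), with -1.15 without cerebellum 1 and -0.69 without cerebellum 2, where the call ended (adjusted p = 0.0747). As with Actl6b, cerebellum 2 was the higher of the cerebellum samples.

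**Figure D2:**
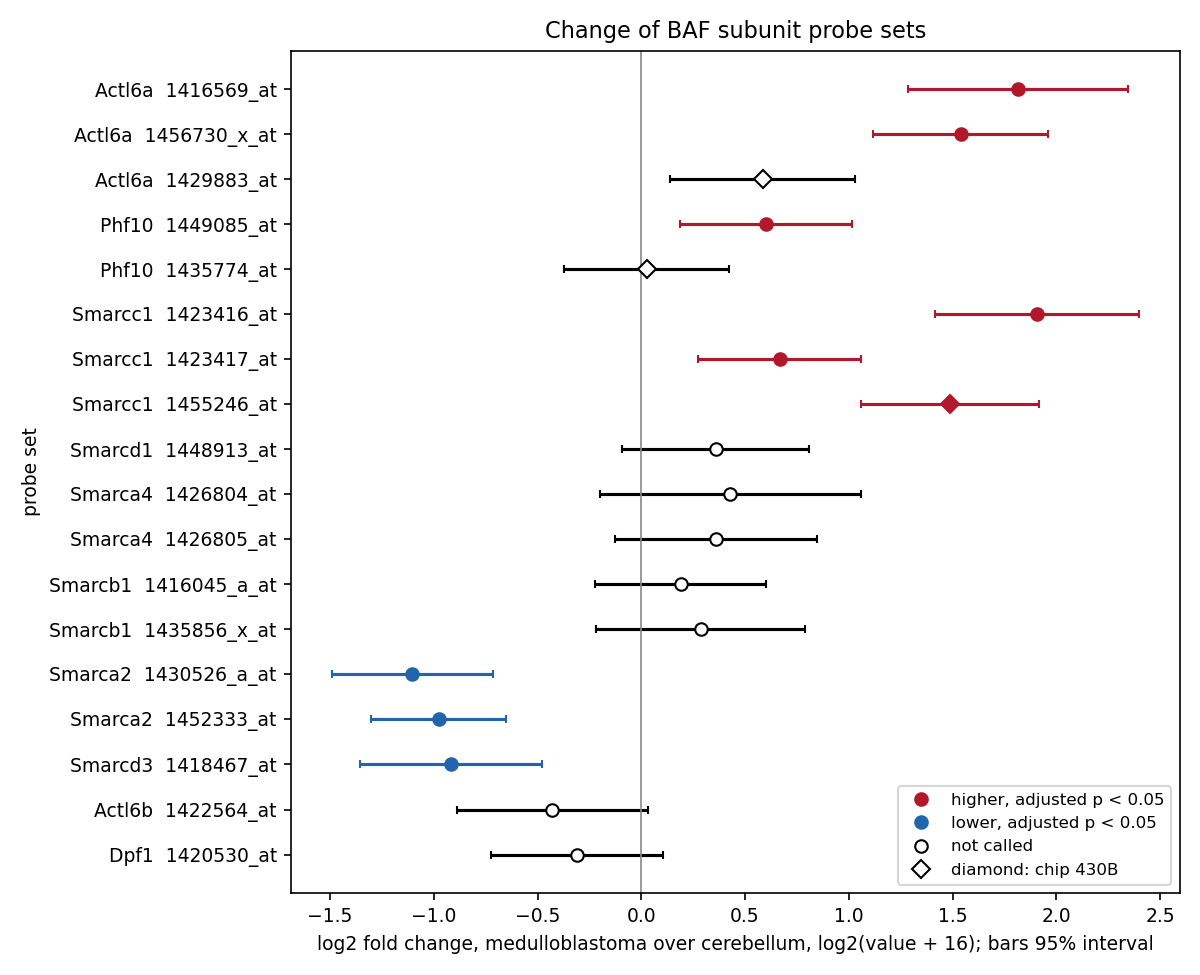
Log2 fold change of medulloblastoma over cerebellum on the log2(value + 16) scale for the 18 tested probe sets, with 95% intervals from limma; filled red points were called higher, filled blue points lower and open points not called, and diamonds are 430B probe sets. Smarcc1 and Actl6a reach 1.91 and 1.82, Smarca2 lies at -1.10 and -0.98, and the intervals of Actl6b and Dpf1 include 0.

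Subunits that take the same place changed unequally. Taking 1 probe set of 430A per gene and setting the cerebellum mean of each at 0, the ratio of Actl6a to Actl6b changed by 2.85, 1.51 and 2.38 log2 units in tumours 1, 2 and 3, against 0.42 and -0.42 in cerebellum 1 and 2. The mean over the tumours was 2.25, made up of 1.82 in Actl6a and -0.43 in Actl6b, so on these probe sets most of it lay in the progenitor subunit. The 430B probe set of Actl6a had 0.58 and was not called, and Actl6b has no probe set on that chip. The ratio of Phf10 to Dpf1 changed by 0.65, 0.85 and 1.24, against 0.09 and -0.09, a mean of 0.91. These probe sets had 0.60 in Phf10 and -0.31 in Dpf1, while the 430B probe set of Phf10 had 0.03. The ratio of Smarcd1 to Smarcd3 changed by 0.92, 1.21 and 1.70, against 0.18 and -0.18, a mean of 1.28. The ratio of Smarca4 to Smarca2 changed by 1.19, 2.08 and 1.33, against -0.25 and 0.25, a mean of 1.53. In these last 2 pairs the larger part lay in the member that fell, -0.92 in Smarcd3 and -1.10 in Smarca2. Across every combination of 430A probe sets, including those not tested, the mean ranged from 1.97 to 2.25 for Actl6a and Actl6b, 0.62 to 0.91 for Phf10 and Dpf1, 0.86 to 1.28 for Smarcd1 and Smarcd3 and 1.34 to 1.53 for Smarca4 and Smarca2. The low ends of 0.62 and 0.86 come from the untested probe sets 1420529_at of Dpf1 and 1420240_at of Smarcd1, which the filter left out. The 430B probe sets of Actl6a and Phf10 are not part of these ranges. All these pair values are descriptions with no test, since the pairs were chosen with earlier results known.

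**Figure D3:**
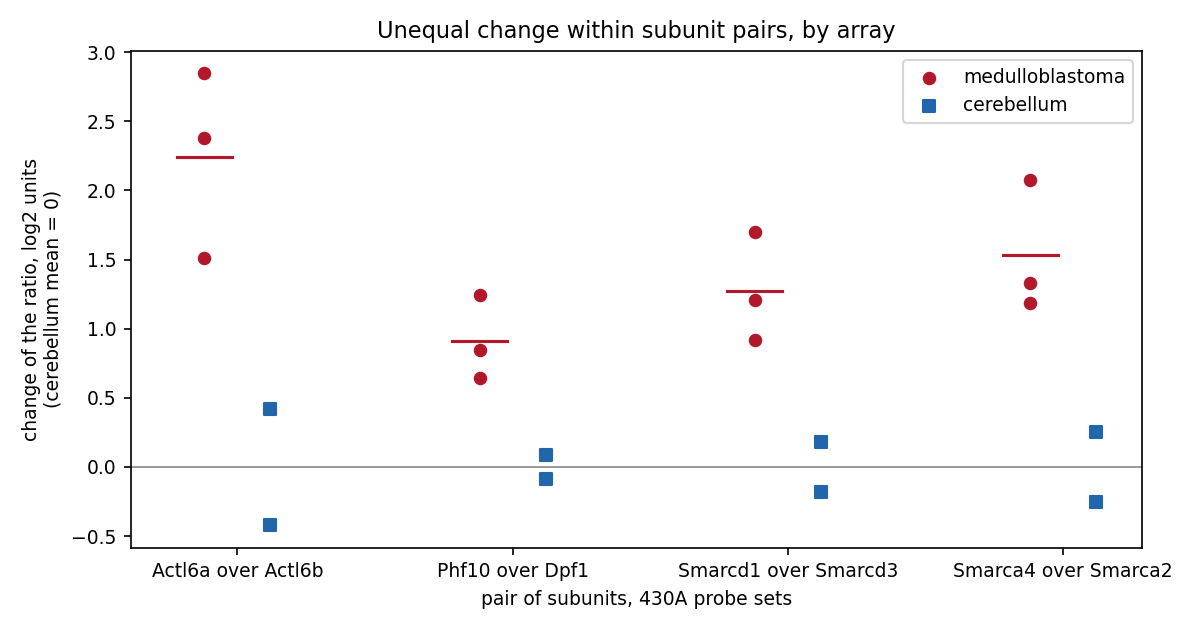
Change of the ratio between 2 subunits of the same place in the complex, in log2 units relative to the cerebellum mean, for each medulloblastoma (red points, bar at the mean) and cerebellum sample (blue squares) on 430A. The tumours lie between 1.51 and 2.85 for Actl6a over Actl6b and between 0.65 and 1.24 for Phf10 over Dpf1.

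The remaining subunits of the family moved in both directions. Of 21 other BAF and PBAF subunit genes, each read by 1 probe set, 5 rose and 2 fell, or 23.8% and 9.52%, where 10.7% and 16% of all 14702 genes tested did. Their median log2 fold change was 0.20, against -0.05 for all genes. Bcl7b, an accessory subunit, fell furthest, with 24.2, 23.8 and 33.7 in tumours against 89.1 and 107 in cerebellum (log2 fold change -1.40 ± 0.17, adjusted p = 8.73e-05). Its relative Bcl7c rose by 1.07 ± 0.22 (adjusted p = 0.00286), a call that ended without cerebellum 1, and its 3 probe sets on 430B were not called. Smarce1, a core subunit with a DNA-binding HMG box, read 333, 363 and 353 in tumours against 178 and 161 in cerebellum (0.98 ± 0.19, adjusted p = 0.00222), and its second 430A probe set gave 1.15.

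The other places of the exchange were looked at after their values were seen, and Dpf3 was named for the size of its change. Dpf3, a neuronal PHD finger subunit, fell, with 11.3, 13.6 and 13.5 in tumours against 33.3 and 35.5 in cerebellum (log2 fold change -0.81 ± 0.14, adjusted p = 0.000845). Its tumour values lay below the filter limit of 15.9 on 430A, so it passed the filter through its cerebellum values. Dpf2, the form found in many tissues, was at -0.17 (adjusted p = 0.603). Ss18, the subunit of progenitor complexes, read 229, 295 and 241 in tumours against 158 and 135 in cerebellum (0.73 ± 0.20, adjusted p = 0.0178). That call ended without either cerebellum sample, its second 430A probe set gave 0.95 (adjusted p = 0.00145), and its 430B probe set was not called (0.53, adjusted p = 0.0562). Ss18l1, its neuronal counterpart, read 75.7, 57.3 and 68.7 in tumours against 75.6 and 82.0 in cerebellum, and was not called (-0.19 ± 0.17, adjusted p = 0.528).

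Both other genes that rose belong to PBAF, the form of the complex that binds acetylated histones through bromodomain proteins. Brd7 had 0.72 ± 0.19 (adjusted p = 0.0113) and Pbrm1 0.59 ± 0.19 (adjusted p = 0.0354). The call of Brd7 ended without either cerebellum sample, and that of Pbrm1 without tumour 1, tumour 3 or either cerebellum sample. The other 2 probe sets of Pbrm1 gave 0.94 and 0.92. Of the 21 genes, 6 whose chosen probe set was not called had another that was, and they are named here after their values were seen. Bcl11b had 0.14 (adjusted p = 0.650) and a second 430B probe set at 1.73 (adjusted p = 5.69e-05), Bcl11a had 0.56 (adjusted p = 0.0706) and 430B probe sets at 1.55 and 1.65, and Smarcd2 had -0.43 (adjusted p = 0.0970) and a second probe set at -0.997 (adjusted p = 0.00163). Arid2, of PBAF, had 0.56 (adjusted p = 0.0696) and a 430B probe set at 1.10 (adjusted p = 0.00806), Bcl7a had 0.20 (adjusted p = 0.388) and one at 0.97 (adjusted p = 0.0209), and Bicral had -0.53 (adjusted p = 0.0707) and a second at -0.60 (adjusted p = 0.0361). The calls of these last 3 ended without either cerebellum sample, that of Bcl7a also without tumour 2 and that of Bicral without tumour 1 or tumour 2. Arid2 and Bcl11a also had further tested probe sets that were not called, at 0.75 and -0.12 for Arid2 and 0.17 and 0.16 for Bcl11a. Arid1a, the DNA-binding subunit of canonical BAF and also chosen after the fact, had 0.08 (adjusted p = 0.864).

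**Figure D4:**
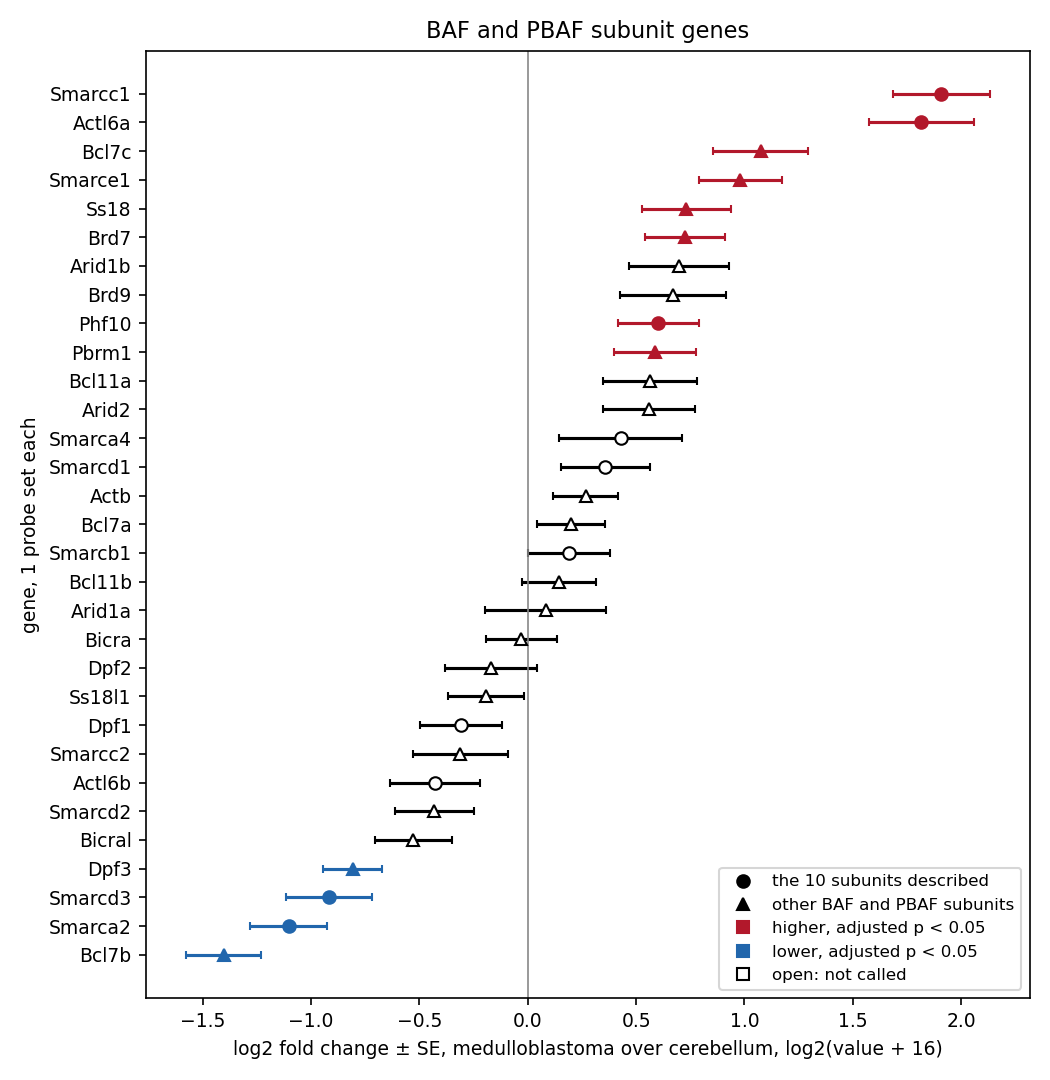
Log2 fold change ± SE of medulloblastoma over cerebellum for 31 BAF and PBAF subunit genes, 1 probe set each, with circles for the 10 subunits described and triangles for the other 21; red was called higher, blue lower and open symbols were not called. Smarcc1 and Actl6a head the order at 1.91 and 1.82, and Smarca2 and Bcl7b close it at -1.10 and -1.40.

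ACTL6A also serves the INO80 and TIP60 complexes, which exchange histone variants and acetylate histones. Of 24 measured subunit genes of these complexes, 6 rose and none fell in limma, or 25% and 0%, where 10.7% and 16% of all genes tested did. At an unadjusted limma p below 0.05 the counts were 10 and 1, against 2228 and 3095 of all 14702 genes. The median log2 fold change of the 24 genes was 0.30, against -0.05 for all genes. The helicase subunit Ruvbl2 led with 235, 215 and 156 in tumours against 49.4 and 49.3 in cerebellum (1.72 ± 0.21, adjusted p = 9.26e-05), near the size seen in Actl6a. Mbtd1 had 1.19 ± 0.22 (adjusted p = 0.00134), Mrgbp 0.99 ± 0.24 (adjusted p = 0.0195) and Yeats4 0.94 ± 0.19 (adjusted p = 0.00279). The call of Mrgbp ended without tumour 1, tumour 2 or either cerebellum sample. Transcript levels do not tell which of these complexes the Actl6a product enters.

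Among 20 ATPases of other remodelling families, 4 rose and 1 fell, or 20% and 5%, where 10.7% and 16% of all genes tested did. The median log2 fold change of these ATPases was 0.14, against -0.05 for all genes. Those that rose were Rad54l, of homologous recombination (2.71 ± 0.21, adjusted p = 4.15e-06), Hells, of DNA methylation at repeats (2.03 ± 0.21, adjusted p = 2.52e-05), Smarcad1, of heterochromatin upkeep (1.03 ± 0.23, adjusted p = 0.00532), and Ercc6, of transcription-coupled repair (0.56 ± 0.14, adjusted p = 0.0180). The one that fell was Chd6 (-0.63 ± 0.17, adjusted p = 0.0135). Leaving out cerebellum 2 ended the calls of Smarcad1, Ercc6 and Chd6, and leaving out cerebellum 1 or tumour 1 those of Ercc6 and Chd6. Smarca2, at -1.10 and -0.98, had the lowest log2 fold changes of the called ATPases, a difference from Chd6 that was not tested.

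The genes most like Actl6a over the 5 arrays of 430A were sought among 15515 other probe sets by the root mean square difference of their log2 values after subtracting each mean. The nearest were Dtymk at 0.0457, Prdx4 at 0.0552, Rrm1 at 0.0591, Rps27l at 0.0728 and Rfc4 at 0.0735 log2 units. In all 5, as in Actl6a, tumour 2 was the lowest tumour and cerebellum 1 the higher cerebellum sample, an order that the search itself selects for. For Actl6b the nearest of 15516 were Fntb at 0.0225, Castor2 at 0.0444, Gpatch8 at 0.0464, Itgb5 at 0.0477 and Hid1 at 0.0489. In each of these tumour 2 was the highest tumour and cerebellum 2 the higher cerebellum sample. With 5 arrays on the 2 tissues, many probe sets share such an order.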

How the data were processed

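Intensity values were used as the authors deposited them, linear and 1 per probe set and array. Software, scaling, background treatment and genome build: not given in the sources used here. Per the labels' protocols, Trizol-extracted RNA was labelled with biotin as cRNA following Affymetrix. Array medians lay from 33.3 to 35.9 on 430A and from 22.5 to 24.0 on 430B, and the number of arrays limits the precision. No detection call was used. Sample titles gave the groups and replicate numbers.

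Intensities were taken as log2(value + 16), so fold changes understate those of low probe sets. A filter removed the 25% of each chip that was dimmest on average, leaving 16969 probe sets on 430A and 16883 on 430B. Each chip was fitted with limma 3.58.1 in R 4.3.3 (lmFit, eBayes with an intensity trend, two-sided), with Benjamini-Hochberg adjustment over the chip. The fit was tested on simulated data. Symbols are those of the platform annotation, matched by Entrez identifier to RefSeq: on 430A 20380 probe sets name 1 gene, 691 several and 1555 none, and on 430B 14661, 245 and 7605. Of those with 1 gene, 20351 and 14486 were found in RefSeq's table, and no symbol changed. All 10 genes had a promoter window in RefSeq's sequences. A gene in a list is read by 1 probe set, by preference on 430A, then without an _s_at or _x_at suffix, then the brightest.

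All probe sets of the 10 genes are named. Of each other list the text names up to 4 called genes by absolute log2 fold change, and any further ones complete a count of 5 or fewer or were chosen after their values were seen. Members, lists, motifs and rules were chosen with earlier results of these data known. Alternatives are given in the closing section. Plots were made in Python 3.11.15 with matplotlib 3.10.9.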

Additional observations from a re-analysis of the deposited data

How the results depend on the processing

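Over 16 alternatives (pseudocounts of 1 and 64, quantile normalization, equal medians, scaling on the 100 shared probe sets, no filter or 50% left out, no intensity trend, replicate block, each array left out, adjusted p below 0.01, log2 limit of 1), the 18 tested probe sets gave 287 values, of which 269 kept direction and call, 12 lost the call, 4 gained one and 2 reversed. Part of the 269 could not have moved. The 2 stricter thresholds can add no call, and the filter, trend and threshold settings leave each log2 fold change as it was. The replicate block repeats the fold changes without tumour 3. The reversals were both of Phf10 on 430B, -0.22 with shared-probe scaling and -0.0124 without medulloblastoma 1 (with an array left out it ranged from -0.0124 to 0.0790). On 430A the higher calls numbered 3 to 5 with an array left out, 3 at adjusted p below 0.01 and 3 at a log2 limit of 1, where 1 lower call was left; on 430B the higher calls numbered 1 to 2 with an array left out and 2 with quantile normalization, where Actl6a was called at 0.62. Whether a tumour and a cerebellum sample share a mouse is not stated. Deviations of tumours and cerebellum samples of the same number, 1 and 2, correlated at -0.03 and 0.17 on 430A and 0.11 and 0.02 on 430B. The largest value was 0.25, for tumour 3 and cerebellum 1 of 430A. With 2 cerebellum samples the deviations of these mirror each other, so the values cannot show or exclude pairing. With the replicate number as a block, tumour 3 had no cerebellum sample of its number and did not enter the fold changes. Those of the 18 tested probe sets therefore equalled the values without tumour 3, such as 0.72 for Actl6a on 430B. Samples of the same number were taken as pairs, which the labels do not state. In that fit 430B had 2 higher calls, 11 INO80 and TIP60 genes rose and 1 fell, and 3 other ATPases fell.

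With an array left out, 1 to 6 other BAF subunits rose (1 without cerebellum 1, 2 without cerebellum 2) and 2 to 3 fell, 4 to 8 INO80 and TIP60 genes rose, and 2 to 4 other ATPases rose and 0 to 2 fell. Quantile normalization gave 9 higher other BAF subunits and 10 higher INO80 and TIP60 genes, and no intensity trend 10 of the last. At adjusted p below 0.01, 2 other BAF subunits rose and 0 ATPases fell. At a log2 limit of 1, 1 other BAF subunit rose and 1 fell, 2 INO80 and TIP60 genes rose and 0 ATPases fell. With 50% left out 1 other BAF subunit fell, and with the mean over probe sets 1 INO80 or TIP60 gene fell. Shared-probe scaling moved the median log2 fold change by 0.12 on 430A and -0.24 on 430B and the higher share of calls to 52.0% and 27.8%, against 40.9% and 44.6% as deposited; the causes were not tested. With an array left out, all calls on 430A numbered 1284 to 2800 higher and 1967 to 3743 lower, and on 430B 513 to 2601 and 917 to 2262. With 1 cerebellum array left, the fit takes its spread from the tumours.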
